A study of Mus musculus with 2 samples.

Results

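The cells described here were 435 of the 23816 cells recovered from tissue of 2 mice labelled olfactory epithelium, the smell-sensing lining of the nose. They were chosen by a rule on UMI counts (a UMI is a tag that marks 1 captured RNA molecule): at least 2 of Cilp2, Cemip, Dio2 and Itgbl1 detected, Clu detected, Cnmd and Tnmd not detected, at most 1 UMI of Ucma and of Col10a1, and at most 2 UMIs of Prg4. A cell was a barcode with at least 1000 UMIs, at least 300 genes and at most 15% mitochondrial UMIs. The rule selected 256 of 14136 cells (1.81%, exact 95% interval 1.6% to 2.04%) in mouse 1 and 179 of 9680 cells (1.85%, 1.59% to 2.14%) in mouse 2. Both animals were male wildtype mice of the C57BL/6J strain with no treatment; their age was not given in the sources used here. Each gave 1 droplet-based single-cell RNA library after dissociation and lysis of red cells, so all values below come from 1 condition and 2 animals.

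The cells had been put forward as perichondrial-like. Perichondrium is the fibrous sheath around cartilage: its outer layer is rich in collagen I and fibroblasts, and its inner layer supplies cells that turn into chondrocytes. The genes of the rule do different things in such tissue. Cilp2 belongs to the cartilage intermediate layer protein family, matrix proteins of the zone between cartilage layers. Cemip binds hyaluronan, the long sugar polymer of connective tissue, and is needed for its breakdown. Dio2 is the deiodinase that converts thyroxine to the active thyroid hormone inside cells. Itgbl1 is a secreted protein with repeats like those of the integrin beta chains, and Clu (clusterin) is a chaperone of the extracellular space. The excluded genes mark neighbours: Cnmd and Ucma cartilage, Tnmd tendon, Col10a1 hypertrophic cartilage and Prg4 the lubricated cartilage surface.

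The start regions of the 4 genes counted by the rule are shown because detection of these genes defines the cells. Each line gives the 250 bases before the annotated start, 5′ to 3′ on the gene's own strand, from the RefSeq table for build GRCm38.p6, which is not the build the counts were made on (GRCm39). The windows are chr8:69887393-69887642 on the minus strand for Cilp2, chr7:84086506-84086755 on the minus strand for Cemip, chr12:90739039-90739288 on the minus strand for Dio2 and chr14:123659890-123660139 on the plus strand for Itgbl1. Capitals mark exact matches to TATAAA, the core of the TATA box, and to TGACGTCA, the full cAMP response element, both searched on both strands.
Cilp2: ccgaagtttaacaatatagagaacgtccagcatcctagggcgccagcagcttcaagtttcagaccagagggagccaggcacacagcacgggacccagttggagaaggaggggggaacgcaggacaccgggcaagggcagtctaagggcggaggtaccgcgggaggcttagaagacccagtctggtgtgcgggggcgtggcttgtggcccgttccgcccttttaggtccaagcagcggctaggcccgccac
Cemip: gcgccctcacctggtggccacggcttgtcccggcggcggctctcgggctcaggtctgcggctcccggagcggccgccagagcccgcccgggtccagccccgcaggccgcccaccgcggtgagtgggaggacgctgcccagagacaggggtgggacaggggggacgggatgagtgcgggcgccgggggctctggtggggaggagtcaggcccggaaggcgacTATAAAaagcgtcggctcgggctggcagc
Dio2: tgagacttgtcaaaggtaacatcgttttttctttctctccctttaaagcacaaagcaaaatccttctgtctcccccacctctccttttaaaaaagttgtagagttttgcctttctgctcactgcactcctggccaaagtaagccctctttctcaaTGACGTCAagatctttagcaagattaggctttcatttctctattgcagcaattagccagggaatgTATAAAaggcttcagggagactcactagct
Itgbl1: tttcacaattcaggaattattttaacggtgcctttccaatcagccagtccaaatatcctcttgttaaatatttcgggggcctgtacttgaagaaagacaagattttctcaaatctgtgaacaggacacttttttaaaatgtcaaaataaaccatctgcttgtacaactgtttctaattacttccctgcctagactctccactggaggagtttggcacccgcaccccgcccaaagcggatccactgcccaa
TATAAA lay 29 bases before the start in Cemip and 30 bases before it in Dio2, and TGACGTCA lay 95 bases before the start in Dio2. Of 32851 mouse start regions of the same length, 4063 (12.4%) held TATAAA and 508 (1.55%) held TGACGTCA on either strand. Neither run of letters was in the Cilp2 and Itgbl1 windows. GC content was 62.4% for Cilp2, 75.2% for Cemip, 41.6% for Dio2 and 42.4% for Itgbl1, so the 4 genes do not share one kind of start region. A match is a description of the sequence and not a measured site.

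The libraries held 95844802 UMIs in mouse 1 and 86049057 in mouse 2, with a median of 3908.5 and 5199 UMIs per cell. The selected cells were a little deeper than that, with a median of 4224 and 6247 UMIs and 1836.5 and 2317 genes, and together held 1217714 and 1309804 UMIs. At that depth 3 UMIs of a gene, the limit that a count of 0 allows, equal 2.46 and 2.29 CPM in mouse 1 and mouse 2 (CPM is a gene's UMIs as parts per 1e6 of all UMIs of the group). The deepest selected cell held 1.52% of these UMIs in mouse 1 and 4.44% in mouse 2. The 2 libraries shared 483 cell barcodes, 3.42% of the cells of mouse 1 and 4.99% of those of mouse 2. Whether barcodes were shared by chance was not tested. The label olfactory epithelium was checked with 5 markers of olfactory neurons: Omp, Stoml3, Umodl1 and Rtp1 were at 0 in the selected cells, and the list summed to 5.75 and 3.05 CPM, against 3.32 and 4.18 CPM in all other cells. Markers of olfactory neurons were therefore as scarce in the other cells as in the selected ones.

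Few cells with the 4 genes met the other conditions. At least 2 of the 4 genes were detected in 3552 cells (25.1%) of mouse 1 and 2574 cells (26.6%) of mouse 2, and 7.21% and 6.95% of these were selected. Among the cells with at least 2 of the genes, 80.7% and 77.5% had Cnmd, 62.6% and 61.8% had more than 1 UMI of Ucma, and 36.9% and 37.9% had more than 2 UMIs of Prg4. Most cells with these genes therefore carried RNA of the cartilage markers that the rule excludes. Clu was absent from 13.5% and 15.3%, and Tnmd was present in 10.8% and 15.3%.

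Itgbl1 was the gene most often behind a selection. It was detected in 221 of 256 selected cells in mouse 1 (86.3%) and 168 of 179 in mouse 2 (93.9%), Dio2 in 141 (55.1%) and 112 (62.6%), Cilp2 in 144 (56.2%) and 89 (49.7%), and Cemip in 92 (35.9%) and 72 (40.2%). Only 43 and 36 selected cells held both Cilp2 and Cemip, the pair in the proposed name. The commonest combinations were Dio2 with Itgbl1 in 117 cells (26.9% of the 435), Cilp2 with Itgbl1 in 96 (22.1%), and Cilp2, Dio2 and Itgbl1 in 48 (11%). Just over the threshold of 2 genes lay 298 cells (68.5%), 105 cells (24.1%) had 3 genes, and 32 (7.36%) had all 4. Clu rested on a single UMI in 111 selected cells (25.5%). Spp1, a phosphorylated glycoprotein of mineralised tissue that was listed as a marker but is not in the rule, was detected in 53 cells (20.7%) and 29 cells (16.2%).

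The levels of the rule's genes were compared with 6 other groups of cells picked by UMI counts from the same mice, and since the rule chose on them they are a description with no test. Ucma cells had at least 3 UMIs of Ucma and of Col2a1 (2550 cells), Prg4 cells at least 3 UMIs of Prg4 (1328), Pi16 cells both Pi16 and Mfap5 (3900), Tnmd cells both Tnmd and Thbs4 (594), Frzb cells both Frzb and Chil1 (137) and Col10a1 cells at least 3 UMIs of Col10a1 (893). Each except the Col10a1 cells had further limits on other groups' markers. The 243 and 198 cells that met more than 1 of these 6 rules were left out, so no cell was counted in 2 groups. Dio2 was 328 and 361 CPM in the selected cells of mouse 1 and mouse 2, against 147 and 101 CPM in Tnmd cells, the next highest group. Itgbl1 was 618 and 675 CPM against 491 and 471 CPM in Tnmd cells and 163 and 168 CPM in Ucma cells. These are the genes of the 4 that were higher in the selected cells than in each of the other groups in both mice.

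**Figure D1:**
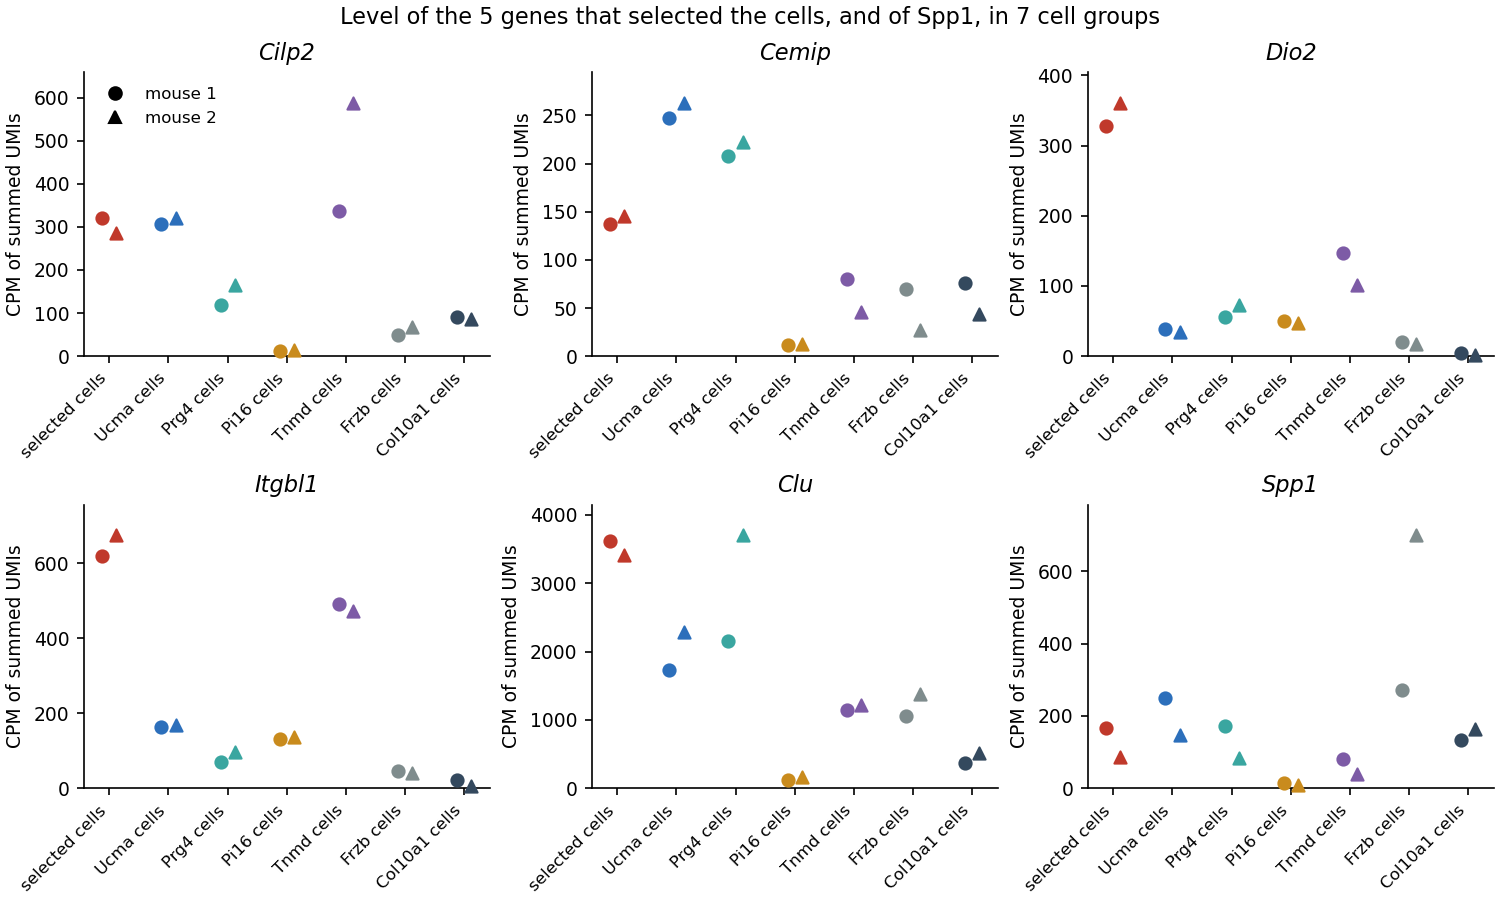
Level of the 5 genes that the rule required, in full or in part, and of Spp1, as CPM of the UMIs summed over the cells of a group (vertical axes, from 0), in 7 groups of cells; circles are mouse 1 and triangles mouse 2. Dio2 and Itgbl1 are highest in the selected cells, Cilp2 is as high in Ucma and Tnmd cells, Cemip is higher in Ucma and Prg4 cells, and Spp1 is highest in Frzb cells.

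Cilp2 and Cemip did not set the cells apart. Cilp2 was 319.5 and 286 CPM in the selected cells, 307 and 320.1 CPM in Ucma cells and 336 and 588 CPM in Tnmd cells, and Cemip was 137 and 146 CPM against 248 and 263 CPM in Ucma cells and 208 and 223 CPM in Prg4 cells. In Pi16 cells both genes were low, at 11.5 and 13.6 CPM for Cilp2 and 11.1 and 12.9 CPM for Cemip. Clu was 3622 and 3404 CPM, above Ucma cells (1726 and 2282 CPM) in both mice, but overlapping with Prg4 cells (2154 and 3704 CPM). Spp1, the one marker outside the rule, was 166 and 86.3 CPM in the selected cells, 249 and 148 CPM in Ucma cells and 164 and 113 CPM over all cells that were not selected. Its log2 difference from Ucma cells was -0.96 ± 0.64 (adjusted p = 0.35) and from Prg4 cells -0.16 ± 0.66 (adjusted p = 0.92). From Pi16 cells (14.8 and 8.6 CPM) the difference was 3.32 ± 0.74 with an adjusted p of 0.044, which became 0.087 when no gene was filtered out for low counts.

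Detection depends on depth, so each cell was also thinned to 2000 UMIs, which left out 43 and 8 selected cells with fewer. At that depth Dio2 was found in 37.1% and 39.8% of the selected cells (55.1% and 62.6% before thinning), against 4.95% and 5.6% of Ucma cells and 1.20% and 0.725% of cells with Ptprc, a leukocyte gene, which should lack it. Itgbl1 was found in 65.3% and 64.9% of the selected cells against 5.58% and 4.35% of Ptprc cells. The rule asked for such genes, so their higher shares in the selected cells are a description and bear on free RNA in no way. The median depth of Ptprc cells before thinning was 4604 and 5596.5 UMIs. Cilp2 was found in 39.4% and 31.0% of the selected cells and in 41.2% and 43.4% of Ucma cells, and Cemip in 17.8% and 21.6% against 31.3% and 30.7%. At equal depth, too, neither gene was more often detected in the selected cells than in Ucma cells. Spp1 was found in 16.9% and 9.94% of the selected cells, and in 7.57% and 1.45% of Ptprc cells. Its share was larger in Ucma cells (22.4% and 15.9%) and Frzb cells (18.1% and 10.2%), and smaller in the other comparison groups.

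The name was then checked against genes of cartilage and of its fibrous sheath. Among cartilage genes, Col2a1, the main collagen of cartilage, was 370 and 103 CPM in the selected cells, below the 3533 and 3225 CPM of barcodes with at most 50 UMIs, which hold free RNA. Acan, the large proteoglycan aggrecan, was 135 and 65.7 CPM, also below free RNA (1058 and 944 CPM). Matn1, a protein of mature cartilage, was not detected, and Sox9, the factor that drives cartilage genes, was 485 and 172 CPM against 1327 and 948 CPM in Ucma cells. On the fibrous side Col1a1 was 9622 and 8477 CPM and Col1a2 7543 and 6816 CPM, between Ucma cells (1635 and 1207 CPM of Col1a1) and Pi16 cells (17259 and 17394 CPM). Postn, a matrix protein of fibrous sheaths, was 200 and 234 CPM, Ctsk, a collagen-cutting protease, 260 and 252 CPM, Prrx1, a factor of limb and face mesenchyme, 258 and 272 CPM, and Gli1, a hedgehog target, 9.03 and 9.16 CPM. Of these fibrous genes Col1a1, Col1a2 and Postn were higher still in Pi16 cells and Gli1 was 20.6 and 15.5 CPM there. The cells thus carried more RNA of the collagen I genes than of these cartilage genes. The fibrous genes were not set against free RNA here. They are shared with other fibrous tissue and none of them is specific to perichondrium. Since Cilp2, Cemip and Spp1 did not set the cells apart either, they are called the selected cells here.

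The balance of matrix genes held cell by cell. The UMIs of 17 cartilage matrix genes and of 12 fibrous matrix genes were summed in each cell as a percentage of its UMIs. The 17 left out the genes of all group rules, and so Col2a1, while the 12 held Col1a1, Col1a2 and Col3a1. Counts of cells with more fibrous than cartilage matrix rest on that choice. The median selected cell had 0.239% and 0.149% cartilage matrix and 2.90% and 2.96% fibrous matrix in mouse 1 and mouse 2. Fibrous exceeded cartilage matrix in 241 of 256 (94.1%) and 176 of 179 (98.3%) selected cells, in 23.2% and 18.2% of Ucma cells, in 39.3% and 47.1% of Prg4 cells and in 99.7% and 99.6% of Pi16 cells. Ucma cells had a median of 1.77% and 1.99% cartilage matrix, and Pi16 cells 0.0733% and 0.05%. Fibrous matrix was 0.801% and 0.762% in the median Ucma cell and 4.98% and 5.07% in the median Pi16 cell, so the median selected cell lay between these groups for both kinds of matrix in both mice. The median Tnmd cell lay between them too, with 0.222% and 0.197% cartilage matrix and 4.72% and 4.96% fibrous matrix. Fibrous exceeded cartilage matrix in 95.1% and 95.5% of Tnmd cells, so this balance was not particular to the selected cells. The rule bears on these shares, since it excludes cells with Cnmd or Ucma, and Ucma cells were required to have Col2a1.

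**Figure D2:**
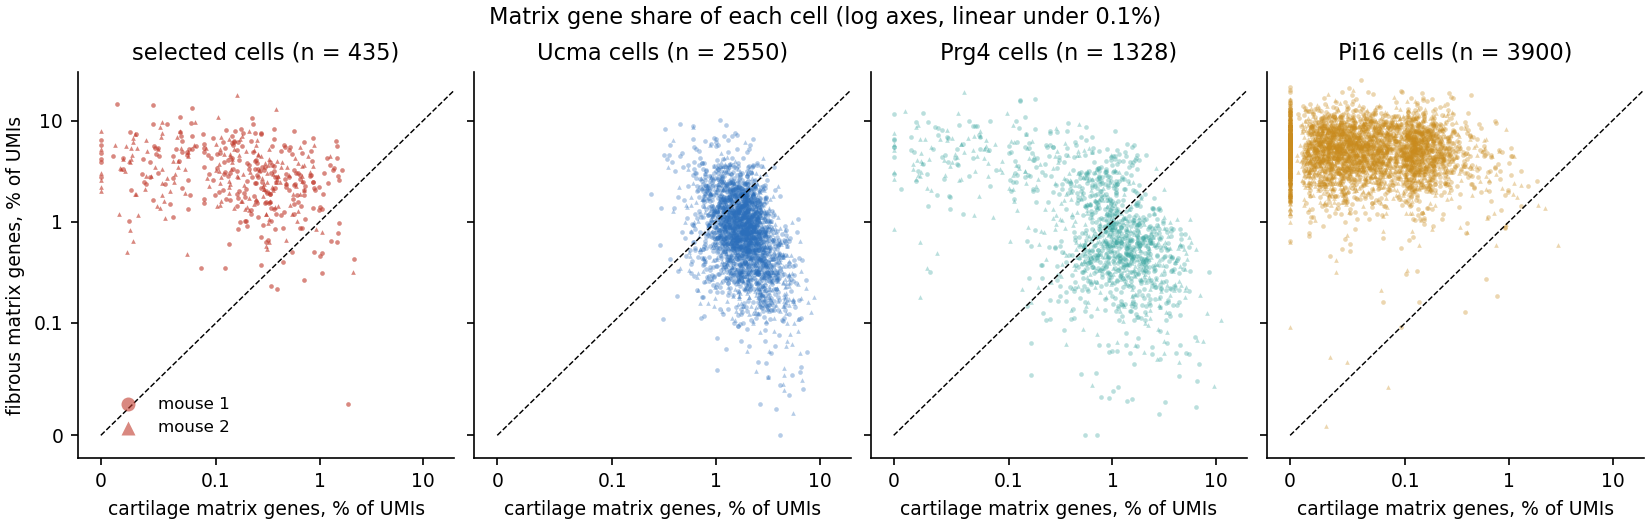
Share of each cell's UMIs from 17 cartilage matrix genes (horizontal axis, %) and 12 fibrous matrix genes (vertical axis, %), both on a log scale that is linear under 0.1%, for the selected cells and 3 comparison groups; each point is a cell, circles mouse 1 and triangles mouse 2, and the dashed line marks equal shares. Most selected cells lie above the line, as do nearly all Pi16 cells, while most Ucma cells lie below it. Col2a1 is not among the cartilage genes.

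Markers of other cell types were measured in the selected cells. A list of 9 fibroblast genes summed to 2269 and 2277 CPM, close to the 2110 and 2300 CPM of all other cells, and at least 3 of the 9 were detected in 108 and 94 selected cells. In barcodes that hold free RNA the list summed to 2166 and 2637 CPM, so its sum did not stand above free RNA in both mice. The 5 tenocyte markers, of which the rule excludes Tnmd, summed to 441 and 264 CPM against 204 and 268 CPM in other cells. Of the selected cells 37 (14.5%) and 25 (14%) also met the rule of the Pi16 cells. The 5 osteoblast markers summed to 111 and 58.0 CPM against 256 and 271 CPM in other cells. Of these Bglap, Sp7 and Dmp1 were at 0, while Ibsp was 51.7 and 13.7 CPM and Runx2 59.1 and 44.3 CPM. The 5 leukocyte markers summed to 52.6 and 55.0 CPM against 197 and 130 CPM in other cells, and the 5 endothelial markers to 59.1 and 46.6 CPM. Mural cell markers summed to 137 and 250 CPM against 137 and 217 CPM in other cells. Haemoglobin and erythroid genes summed to 103 and 533 CPM against 169 and 119 CPM in other cells. In barcodes that hold free RNA these erythroid genes summed to 1473 and 551 CPM. Skeletal muscle genes summed to 185 and 16.8 CPM against 179 and 99.5 CPM in other cells. The erythroid and muscle sums thus differed between the mice. Scrublet called 1 and 4 doublets in all cells and had not worked. Removing the cells with the highest scores at a rate of 0.8% per 1000 cells took 24 (9.38%) and 16 (8.94%) of the selected cells, against 11.3% and 7.75% of all cells.

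The threshold of 2 genes cut through a gradient. Cells that met all other conditions numbered 774 and 534 with none of the 4 genes, 446 and 314 with 1, 181 and 117 with 2, 64 and 41 with 3, and 11 and 21 with 4. Clu, of which the rule asked a single UMI, was 1203 and 707 CPM just outside the threshold with 1 gene, 2575 and 1816 CPM just inside it with 2, and 8407 and 9528 CPM with all 4. Lum, the small leucine-rich proteoglycan lumican that spaces collagen fibrils, went from 522 and 377 CPM with 1 gene to 680 and 513 CPM with 2 and 2415 and 2470 CPM with 4. Comp, a pentameric thrombospondin of cartilage and tendon matrix, was 268 and 164 CPM with 1 gene and 631 and 506 CPM with 2. Each of these genes was higher at every added gene in both mice. Col1a1 showed no such order (13643 and 12444 CPM with 1 gene, 9151 and 9306 CPM with 2, 9783 and 5846 CPM with 4), and neither did Pi16, which was 640 and 943 CPM with 1 gene, 522 and 311 CPM with 2, 173 and 47.7 CPM with 3 and 250 and 20.5 CPM with 4. Depth went up along the same order, from a median of 3071 and 4371 UMIs with 1 gene to 6610 and 7781 with 4, and its part in these levels, which are scaled to depth, was not tested. The levels also differed with which genes were detected. With 2 genes, Clu was 4136 and 3909 CPM for Cilp2 with Itgbl1 and 1581 and 770 CPM for Dio2 with Itgbl1. Comp was 1203 and 967 CPM against 194 and 358 CPM. With Cemip, Dio2 and Itgbl1, Clu was 2847 and 1922 CPM and Comp 461 and 113 CPM. The part of Cilp2 in this order was not tested.

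**Figure D3:**
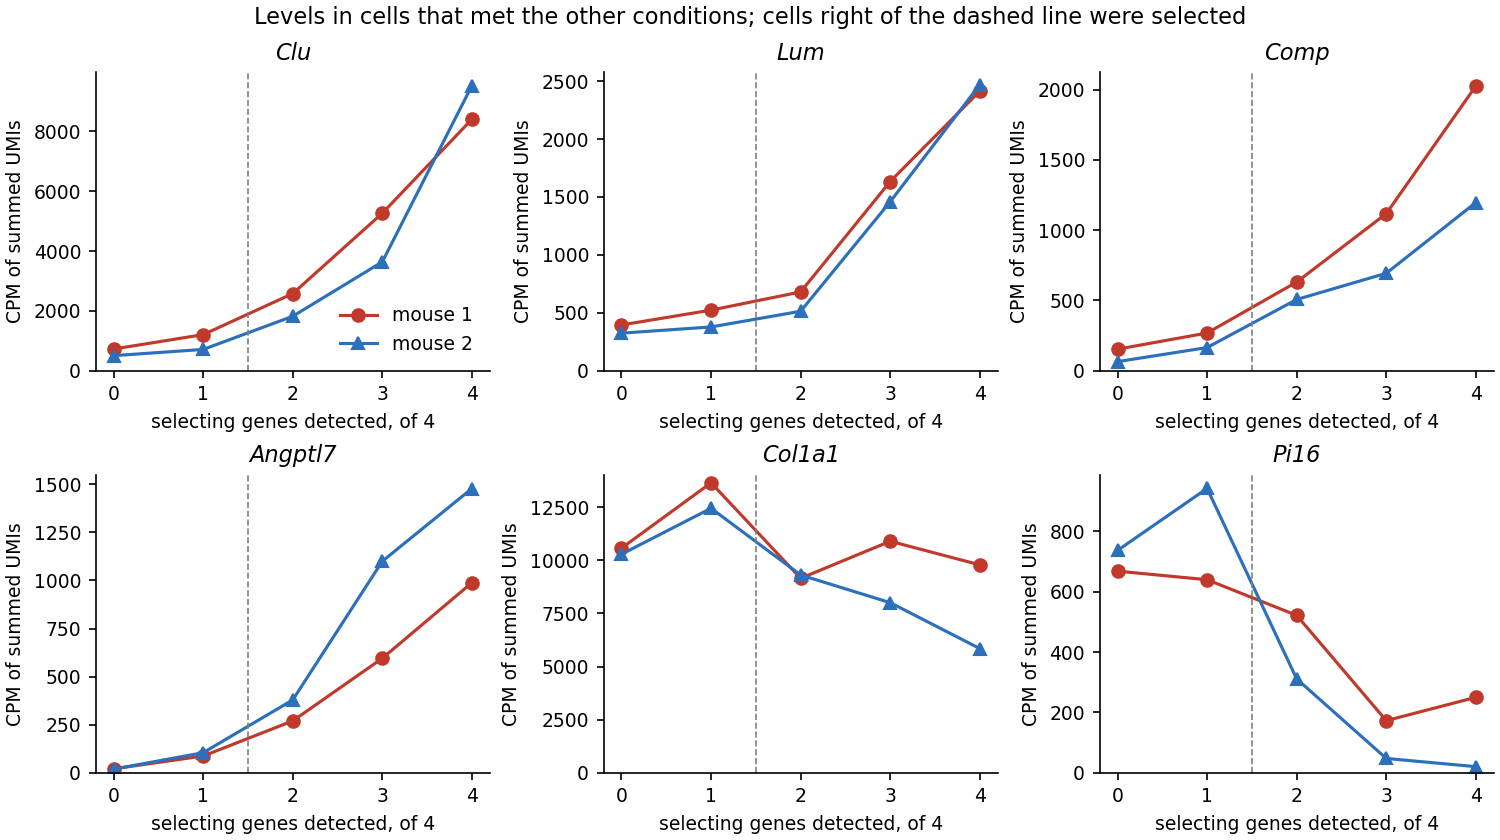
Level of 6 genes, as CPM of summed UMIs (vertical axes, from 0), in cells that met every other condition of the rule, by the number of Cilp2, Cemip, Dio2 and Itgbl1 detected (horizontal axes); circles are mouse 1, triangles mouse 2, and cells to the right of the dashed line were selected. Clu, Lum, Comp and Angptl7 are higher with each added gene, while Pi16 is lower with 3 or 4 genes than with 0 or 1.

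The selected cells were not uniform. Split by whether Cilp2 was detected, which is a description because the rule used Cilp2, 144 and 89 cells had it and 112 and 90 did not, with like median depths (4135.5 and 6322 UMIs against 4470 and 6191.5). Cells with Cilp2 had 5362 and 5547 CPM of Clu against 1587 and 994 CPM, and 1332 and 997 CPM of Comp against 271 and 269 CPM. Chad, a collagen-binding leucine-rich protein of cartilage, was 561 and 525 CPM with Cilp2 against 180 and 51.9 CPM without. The fibril-binding proteoglycan fibromodulin, Fmod, was 972 and 800 CPM against 271 and 182 CPM. In each of these 4 genes both mice showed the same side higher. Pi16, a marker of adventitial fibroblasts, had the opposite order, at 171 and 28.8 CPM with Cilp2 and 707 and 402 CPM without. Spp1 was 264 and 149 CPM with Cilp2 and 51.7 and 16.2 CPM without it, higher with Cilp2 in both mice. Sox9 was 564 and 242 CPM against 394 and 92.5 CPM, while Col2a1 was 224 and 111 CPM against 540 and 94.1 CPM, which differed in direction between the mice.

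Igfbp2, an insulin-like growth factor binding protein, came from a few cells. It was 82.9 CPM in mouse 1 and 695 CPM in mouse 2, but only 16 and 27 selected cells had a UMI of it, and the top 5 cells of each mouse held 82.2% and 80.8% of its UMIs. Of the 4 and 16 cells with at least 5 UMIs, 0 and 2 had Cilp2. Cells rich in Igfbp2 were therefore few and mostly without Cilp2.

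Outside the rule, 10 genes stood highest relative to all cells that were not selected, ranked by the ratio of mean CPM with at least 50 CPM in the selected cells and no test. Besides Igfbp2 (9.88-fold) and the gene model Gm38392, 98.3% of whose UMIs in mouse 2 came from 1 cell, these were Angptl7, Gm26512, Mtor, Cdh11, F2r, Npnt, Fgf14 and Lum. Angptl7, a secreted angiopoietin-like protein, was 397 and 716 CPM against 55.5 and 95.4 CPM in the other cells (7.38-fold). Mtor and Angptl7 overlap on opposite strands, and 69 of the 81 and 66 of the 76 selected cells with Angptl7 also had Mtor. Gm26512 is antisense to Dio2, and 67 of its 73 and 68 of its 73 cells also had Dio2. No source used here says whether counting used strand, so Mtor and Gm26512 cannot be told apart from their partners. Cdh11, a cadherin of mesenchymal cells, was 117 and 167 CPM against 23.7 and 26.9 CPM (5.62-fold), and F2r, the thrombin receptor, 99.4 and 134 CPM against 22.7 and 18.7 CPM (5.62-fold). Npnt (nephronectin), a matrix ligand of integrin alpha 8, was 48.5 and 80.2 CPM against 9.88 and 14.5 CPM (5.28-fold). Only 31 and 36 selected cells had a UMI of Npnt, and the top cell held 13.6% and 11.4% of its UMIs. Lum was 1029 and 1032 CPM against 275 and 240 CPM (4.01-fold).

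Some of these genes were as high or higher in Tnmd cells, whose defining gene the rule excludes. Angptl7 was 1001 and 1271 CPM there, above the selected cells in both mice, and at 2000 UMIs per cell it was found in 52.7% and 56.8% of Tnmd cells against 26.3% and 33.9% of the selected cells. Fmod was 3248 and 4481 CPM against 649 and 509 CPM, and Cilp, the relative of Cilp2, 1064 and 1390 CPM against 227 and 134 CPM. Lum (440 and 316 CPM), F2r (68.2 and 62.9 CPM), Cdh11 (82.2 and 101 CPM) and Npnt (17.8 and 7.98 CPM) were lower in Tnmd cells than in the selected cells in both mice. These levels were set side by side without a test.

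**Figure D4:**
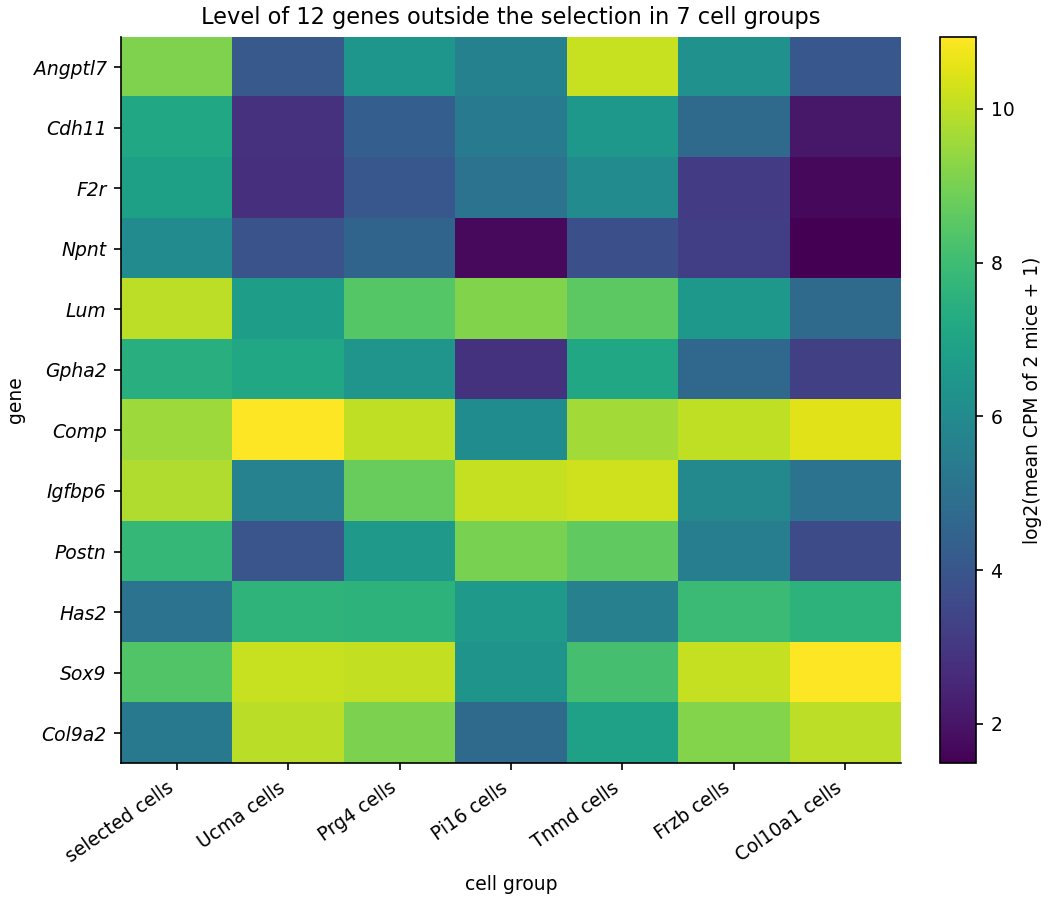
Levels of 12 genes that the rule did not use (vertical axis) in 7 groups of cells (horizontal axis); colour is log2 of the mean CPM of the 2 mice plus 1. Lum, Cdh11, F2r and Npnt are highest in the selected cells, Angptl7 is higher in Tnmd cells, and Has2, Sox9 and Col9a2 are lower in the selected cells than in Ucma and Prg4 cells.

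The selected cells were compared with Ucma, Prg4 and Pi16 cells, groups picked on genes of cartilage, of the cartilage surface and of adventitial fibroblasts in the same animals, to place them between cartilage and fibrous tissue. UMIs were summed per mouse and group, and edgeR's quasi-likelihood test was fitted to the 14 sums of 7 groups with the mouse as a block (6 residual degrees of freedom). Every adjusted p below is from that test with Benjamini-Hochberg adjustment over 17401 genes, every fold change is log2 of selected over comparison cells ± its standard error, and a gene is called at an adjusted p under 0.05. The 16 genes used to define any group were not tested. The rules still bear on genes that travel with the excluded ones, so lower cartilage genes than in cells picked on Ucma and Col2a1 follow in part from the choice of cells. The 3 comparisons share the selected cells and are given side by side only.

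Against Ucma cells 4223 genes were called (24.3%), of which 1825 were higher (10.5% of those tested) and 2398 lower (13.8%) in the selected cells, and 4131 of the 4223 had that direction in both mice. DESeq2's Wald test called 1982 higher and 1967 lower there, so the excess of lower calls was not seen with it. Against Prg4 cells 2555 were called (14.7%), 918 higher (5.28%) and 1637 lower (9.41%). The Wald test called 1096 higher and 1277 lower there, so the share of higher calls went from 35.9% to 46.2%. Against Pi16 cells 1594 were called (9.16%), 923 higher (5.3%) and 671 lower (3.86%). Lower calls were the majority in that comparison with no filter on low counts (933 higher, 1066 lower), among selected cells with at least 3 of the 4 genes (787 and 936) and among those with both Cilp2 and Cemip (611 and 832). In these settings the median log2 fold change over all genes was -0.11, -0.10 and -0.21, in that order. In the main fit it was -0.02, -0.01 and -0.02 in the 3 comparisons, so the lists below can be read against a centre near 0. Counts of called genes in a list are to be read against the shares of all tested genes given above.

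The selected cells were poor in cartilage collagens and their partners. Of 17 tested cartilage matrix genes 14 were lower and 1 higher than in Ucma cells (median -3.89), 13 were lower and none higher than in Prg4 cells (median -2.92), and 7 were higher and none lower than in Pi16 cells (median 1.03). With Matn1, at 0 in the selected cells, put at its bound of 3 counts, the first 2 medians were -3.83 and -2.58. Col9a2, a chain of the collagen IX that decorates cartilage fibrils, was 44.3 and 32.8 CPM against 963 and 1016 CPM in Ucma cells (log2 -5.00 ± 0.21, adjusted p = 7.2e-13) and 601 and 482 CPM in Prg4 cells (-3.95 ± 0.20, adjusted p = 3.1e-11). In Pi16 cells it was 30.9 and 21.2 CPM, and it was not called there. Cytl1, a secreted protein abundant in cartilage, was 759 and 470 CPM against 6214 and 7967 CPM in Ucma cells (-3.83 ± 0.35, adjusted p = 0.00015). Snorc, a membrane proteoglycan of chondrocytes, was 107 and 48.9 CPM in the selected cells against 90.2 and 54.4 CPM in Pi16 cells.

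Part of the cartilage list stood above fibroblasts. Comp was 843 and 654 CPM against 77.7 and 55.4 CPM in Pi16 cells (3.38 ± 0.18, adjusted p = 1.4e-10), though below Ucma cells (1819 and 2107 CPM, -1.70 ± 0.17). Chad was 385 and 302 CPM against 44.1 and 50.4 CPM in Pi16 cells (2.79 ± 0.27, adjusted p = 7.3e-05), and Col11a1 217 and 150 CPM against 54.8 and 44.3 CPM (1.78 ± 0.24, adjusted p = 0.00037). Comp and Chad are found in tendon as well as in cartilage, and they were 764 and 799 CPM and 352 and 430 CPM in Tnmd cells. Acan, by contrast, was 58.8 and 32.5 CPM in Pi16 cells against 135 and 65.7 CPM, and was not called there.

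Transcription factors of the skeleton had medians of the same signs. Of 19 tested 3 were higher and 11 lower than in Ucma cells (median -1.62), 2 higher and 9 lower than in Prg4 cells (-1.16), and 11 higher and 2 lower than in Pi16 cells (0.97). With Sp7 and Foxa2, at 0 in a group, at their bounds (or left out where both groups were at or under the floor) the medians were -1.33, -0.64 and 1.05. Sox9 was 104 and 62.4 CPM in Pi16 cells (1.81 ± 0.28, adjusted p = 0.0025) and was lower in the selected cells than in Ucma cells (-2.18 ± 0.28) and Prg4 cells (-1.93 ± 0.27). Its partner Sox6 was 112 and 60.3 CPM against 292 and 240 CPM in Ucma cells and 15.5 and 7.49 CPM in Pi16 cells, a log2 difference of 2.80 ± 0.21 from the last (adjusted p = 5.1e-09). Erg, a factor of joint-lining and permanent cartilage, was 154 and 94.7 CPM against 14 and 9.37 CPM in Pi16 cells (3.29 ± 0.17, adjusted p = 2.1e-11). Foxc1, a forkhead factor of cranial mesenchyme, was 76.4 and 67.9 CPM against 8.38 and 5.07 CPM (3.33 ± 0.21), and Scx, the tendon factor scleraxis, 14 and 22.1 CPM against 1.75 and 1.98 CPM (3.13 ± 0.38). In Tnmd cells Scx was 33.5 and 58.9 CPM.

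Genes of the fibrous layer had medians of the opposite sign. Of 16 tested 12 were higher and 1 lower than in Ucma cells (median 1.46), 8 higher and none lower than in Prg4 cells (1.05), and 3 higher and 3 lower than in Pi16 cells (-0.30). Postn was 16.0 and 13.4 CPM in Ucma cells (3.56 ± 0.25, adjusted p = 5.3e-08), 65.9 and 129 CPM in Prg4 cells (1.07 ± 0.23) and 485 and 563 CPM in Pi16 cells (-1.38 ± 0.22, adjusted p = 0.00069). Col1a1 was higher than in Ucma cells (2.37 ± 0.61, adjusted p = 0.035), a call lost with no filter on low counts (adjusted p = 0.063), and it was not called against Prg4 cells (2703 and 3107 CPM) or Pi16 cells. Tnc, the anti-adhesive glycoprotein tenascin C, was 1 of the 3 higher than in Pi16 cells (the others were Axin2 and Col12a1): at 78.8 and 70.2 CPM it was above both Ucma cells (8.13 and 7.95 CPM, 2.90 ± 0.45) and Pi16 cells (13.5 and 3.20 CPM, 3.11 ± 0.46, adjusted p = 0.0027). Pdgfra, the receptor that marks fibroblast lineages, was 300 and 401 CPM, above Ucma cells (64.2 and 54.5 CPM, 2.26 ± 0.20) and Prg4 cells (141 and 158 CPM, 1.09 ± 0.20), and was 286 and 309 CPM in Pi16 cells.

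**Figure D5:**
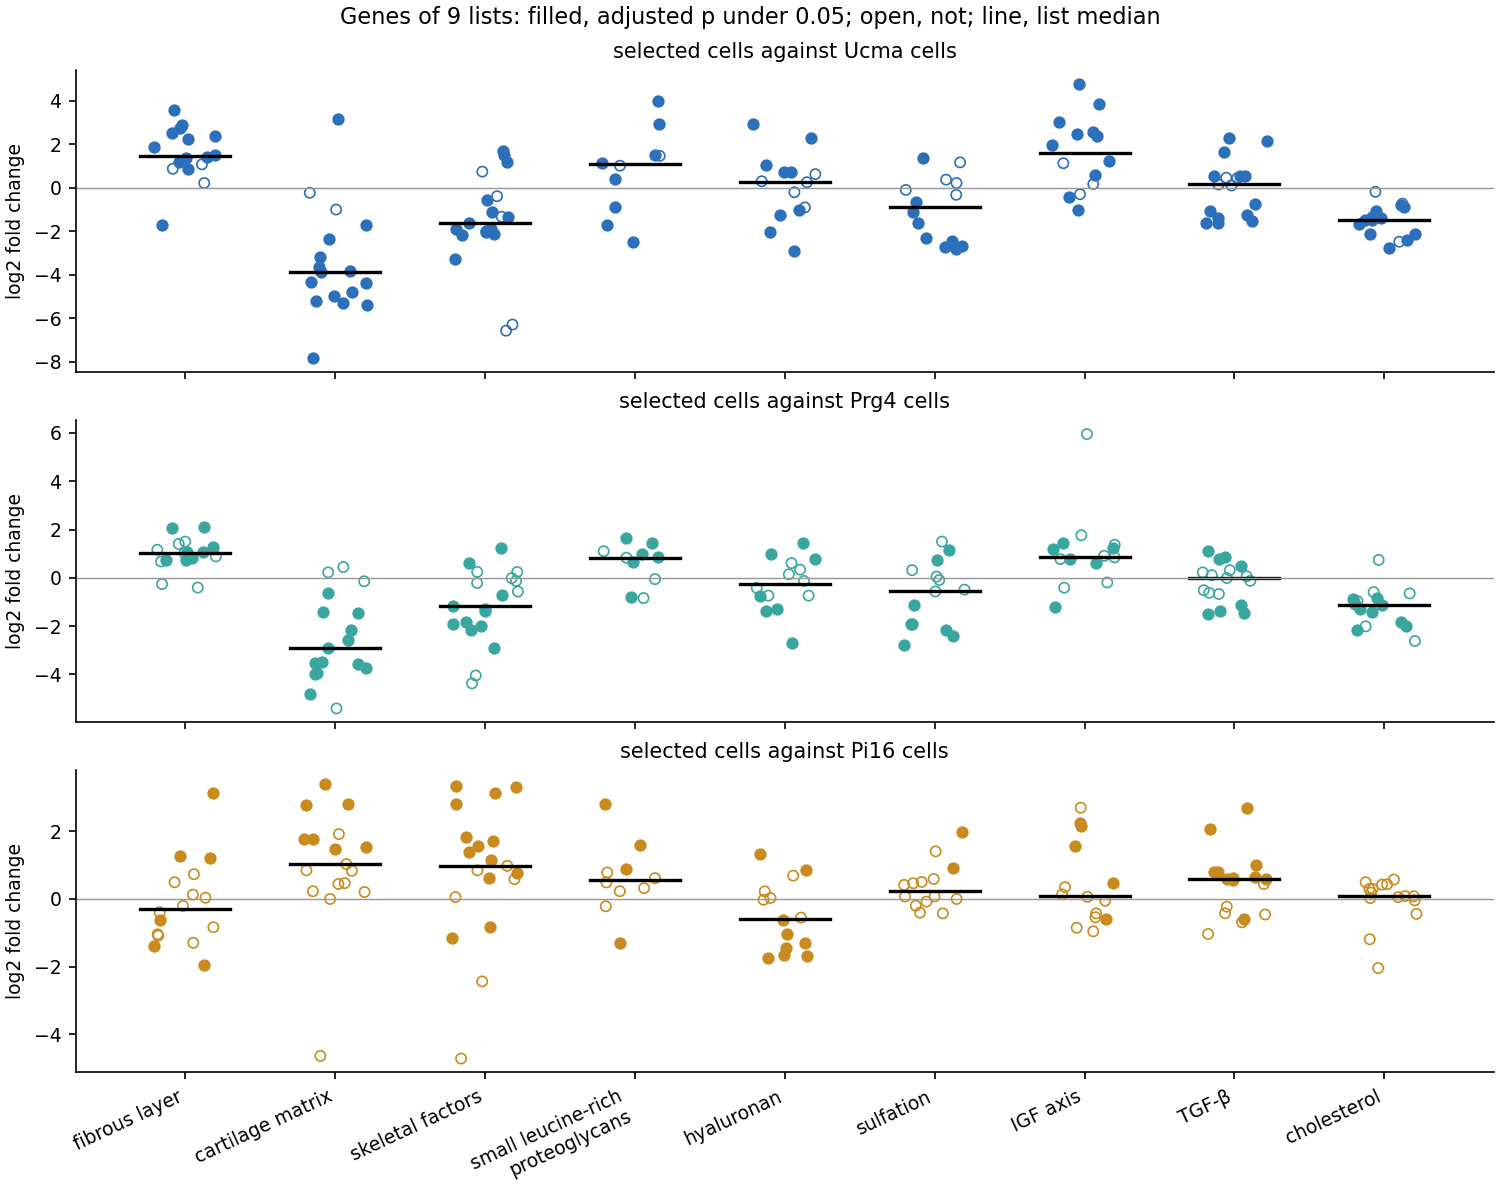
Log2 fold change (vertical axes) of the genes of 9 lists (horizontal axis) in the selected cells against Ucma, Prg4 and Pi16 cells; each point is a gene, filled where its adjusted p was under 0.05, and the line is the list's median. Cartilage matrix genes lie mostly under 0 against Ucma and Prg4 cells and over 0 against Pi16 cells, and cholesterol synthesis genes have medians of -1.49, -1.11 and 0.08.

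The small leucine-rich proteoglycans, which bind and space collagen fibrils, divided. Of 10 tested 5 were higher and 3 lower than in Ucma cells, 5 higher and 1 lower than in Prg4 cells, and 3 higher and 1 lower than in Pi16 cells. Lum was higher than in Ucma cells (120 and 100 CPM, 2.93 ± 0.26, adjusted p = 6.5e-06) and Prg4 cells (303 and 385 CPM, 1.44 ± 0.25, adjusted p = 0.0022), and was 625 and 499 CPM in Pi16 cells with no call. Omd (osteomodulin) was 145 and 148 CPM, below Ucma cells (582 and 774 CPM, -2.50 ± 0.15) and above Pi16 cells (43.0 and 47.0 CPM, 1.6 ± 0.15). Fmod was higher than in Pi16 cells (103 and 53.7 CPM, 2.78 ± 0.41, adjusted p = 0.0067). Dcn (decorin) was 12417 and 10245 CPM, above Ucma cells (3420 and 3022 CPM, 1.5 ± 0.15) and Prg4 cells (4606 and 5598 CPM, 1.00 ± 0.15), and Bgn (biglycan) was 2218 and 2467 CPM, above Prg4 cells (1053 and 1331 CPM, 0.85 ± 0.14) and Pi16 cells (1102 and 1263 CPM, 0.88 ± 0.14). Both Bgn calls were lost in the fit without the mouse as a block (adjusted p = 0.094 and 0.12). Tnmd cells had a like level of Bgn, at 2033 and 2557 CPM, without a test.

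Among the relatives and partners of Cilp2 in the matrix between layers, 5 of 15 tested genes were higher and 8 lower than in Ucma cells, 2 higher and 5 lower than in Prg4 cells, and 6 higher and 1 lower than in Pi16 cells. Cilp itself did not follow Cilp2: it was 18.8 and 7.70 CPM in Ucma cells, where Cilp2 was as high as in the selected cells, and the difference of 3.48 ± 0.51 (adjusted p = 0.0027) lost its call among cells with at least 3 of the 4 genes (adjusted p = 0.087). In Pi16 cells Cilp was 224 and 256 CPM. Thbs2, a thrombospondin of fibrous tissue, was 160 and 118 CPM, above Ucma cells (18.3 and 13.3 CPM, 2.83 ± 0.21) and Prg4 cells (35.5 and 37.7 CPM, 1.78 ± 0.21), and 89.0 and 73.1 CPM in Pi16 cells. In Tnmd cells Thbs2 was higher than in the selected cells, at 335 and 352 CPM, without a test. Smoc2, a calcium-binding matricellular protein, was 112 and 75.6 CPM against 1083 and 725 CPM in Ucma cells (-3.57 ± 0.23, adjusted p = 2.5e-08). Thbs1 was 267 and 164 CPM, below Ucma cells (645 and 785 CPM, -2.08 ± 0.19) and above Pi16 cells (60.7 and 52.5 CPM, 1.80 ± 0.20).

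Hyaluronan genes bear on Cemip, which acts on that polymer. Of 14 tested 5 were higher and 4 lower than in Ucma cells, 3 higher and 4 lower than in Prg4 cells, and 2 higher and 7 lower than in Pi16 cells (median -0.59). Has2, a hyaluronan synthase of the cell surface, was 38.6 and 26.7 CPM in the selected cells, against 225 and 166 CPM in Ucma cells, 235 and 153 CPM in Prg4 cells and 109 and 84.6 CPM in Pi16 cells. It was the lowest of the 4 groups in both mice, by -2.89 ± 0.18 (adjusted p = 5.5e-11), -2.70 ± 0.18 (adjusted p = 4.2e-10) and -1.69 ± 0.18 (adjusted p = 8.1e-07). In Tnmd cells Has2 was 62.2 and 31.9 CPM, nearer to the selected cells and without a test. Has2 overlaps its antisense transcript Has2os, which was found in 11 of the 28 and 9 of the 22 selected cells with Has2. The synthase Has1 had another order, at 271 and 160 CPM, 108 and 64.4 CPM in Ucma cells and higher, at 540 and 431 CPM, in Pi16 cells (-1.31 ± 0.17). Cemip2, the membrane hyaluronidase related to Cemip, was 96.1 and 70.2 CPM, below Prg4 cells (255 and 148 CPM, -1.39 ± 0.18, adjusted p = 5.2e-06), and was 176 and 104 CPM in Ucma cells and 55.5 and 31.6 CPM in Pi16 cells. Vcan, the hyaluronan-binding proteoglycan versican, was 117 and 112 CPM, above Ucma cells (16.3 and 8.61 CPM, 2.94 ± 0.18) and below Pi16 cells (253 and 186 CPM, -1.03 ± 0.16). Cd44, the hyaluronan receptor, was 481 and 200 CPM, with 384 and 225 CPM in Ucma cells, 682 and 330 CPM in Prg4 cells and 357 and 229 CPM in Pi16 cells.

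Thyroid hormone genes bear on Dio2 in the same way. Of 13 tested 3 were higher and 3 lower than in Ucma cells, 1 higher and 3 lower than in Prg4 cells, and 2 higher and none lower than in Pi16 cells. Thra, the main thyroid hormone receptor of bone and cartilage, was 153 and 152 CPM and was called in none of the 3 comparisons, with 110 and 143 CPM in Ucma cells, 111 and 140 CPM in Prg4 cells and 134 and 162 CPM in Pi16 cells. Thrb, the other receptor, was 81.3 and 83.2 CPM, below Prg4 cells (119 and 146 CPM, -0.82 ± 0.16) and above Pi16 cells (39.5 and 42.8 CPM, 0.89 ± 0.17, adjusted p = 0.0009). Of known target genes, Klf9 was 593 and 486 CPM with no call in any comparison, and Hr was lower than in Ucma cells (-1.21 ± 0.16) and Prg4 cells (-0.96 ± 0.17). Dio1, the deiodinase of liver and kidney, had 0 and 0.763 CPM, below the 3-UMI limit. Dio3, which inactivates the hormone, was low throughout, at 5.75 and 7.63 CPM against 0.690 and 0.579 CPM in Ucma cells.

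Complement genes, on whose end products clusterin acts, and other chaperones were more often higher than lower against Ucma and Prg4 cells. Of 15 tested 7 were higher and 1 lower than in Ucma cells (median 1.10), 4 higher and none lower than in Prg4 cells, and 2 higher and 4 lower than in Pi16 cells. Serping1, the C1 inhibitor, was 1162 and 1086 CPM against 139 and 54.7 CPM in Ucma cells (3.37 ± 0.54, adjusted p = 0.005). The C1 protease genes C1s1 (203 and 143 CPM) and C1ra (173 and 128 CPM) were above Prg4 cells by 1.62 ± 0.17 and 1.23 ± 0.16 on the log2 scale. Cd55, a membrane regulator, was 27.9 and 27.5 CPM, between Ucma cells (6.06 and 2.48 CPM) and Pi16 cells (103 and 100 CPM, -1.99 ± 0.32).

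The list of mineral genes held inhibitors of mineral such as Ank and Enpp1, bone matrix genes such as Ibsp and Bglap, and phosphate transporters. Of 10 tested 3 were lower and none higher than in Ucma cells, 2 were lower and none higher than in Prg4 cells, and 4 were higher and none lower than in Pi16 cells. Ank, which exports pyrophosphate and citrate, was 378 and 225 CPM, below Ucma cells (669 and 406 CPM, -1.14 ± 0.18) and Prg4 cells (1299 and 861 CPM, -1.99 ± 0.19), and above Pi16 cells (57.9 and 33.3 CPM, 2.62 ± 0.19, adjusted p = 4.8e-08). Enpp1, which makes pyrophosphate, had the same order at 62.4 and 42.0 CPM, with differences of -1.25 ± 0.18, -1.76 ± 0.18 and 1.75 ± 0.20. Mgp, the matrix protein that blocks calcification, was 7636 and 6453 CPM against 19651 and 32464 CPM in Ucma cells (-2.16 ± 0.30, adjusted p = 0.0012).

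Secreted signals were measured by family. Of 11 Wnt antagonists 6 were higher and 3 lower than in Ucma cells, 5 higher and 3 lower than in Prg4 cells, and 3 higher and none lower than in Pi16 cells. Sfrp2, a secreted frizzled-related protein of fibroblasts, was 127 and 134 CPM against 9.43 and 3.81 CPM in Ucma cells (4.08 ± 0.27, adjusted p = 2.8e-08), whereas Wif1, which binds Wnt ligands, was 227 and 184 CPM against 1858 and 1866 CPM in Prg4 cells (-3.32 ± 0.27, adjusted p = 8.7e-06) and 64.3 and 37.5 CPM in Pi16 cells (1.91 ± 0.26). Notum, the enzyme that removes the lipid of Wnt proteins, was 22.2 and 14.5 CPM against 301 and 323 CPM in Prg4 cells (-4.24 ± 0.23, adjusted p = 5.3e-11). Pthlh, the parathyroid hormone-like signal that keeps chondrocytes from maturing, was 32.8 and 46.6 CPM, the highest of the 4 groups in both mice: it exceeded Ucma cells (3.45 and 3.81 CPM, 3.11 ± 0.36), Prg4 cells (8.68 and 7.73 CPM, 2.06 ± 0.37) and Pi16 cells (5.25 and 13.8 CPM, 1.99 ± 0.34, adjusted p = 0.00036). The calls against Prg4 and Pi16 cells were lost among cells with both Cilp2 and Cemip (adjusted p = 0.19 and 0.18). Gas1, a hedgehog co-receptor, was 484 and 595 CPM, above Ucma cells (96.4 and 102 CPM, 2.13 ± 0.17) and Prg4 cells (137 and 232 CPM, 1.43 ± 0.16).

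Of 14 genes of the insulin-like growth factor system 9 were higher and 2 lower than in Ucma cells (median 1.61), 5 higher and 1 lower than in Prg4 cells (0.88), and 4 higher and 1 lower than in Pi16 cells. Igfbp6, a binding protein with preference for IGF2, was 749 and 1035 CPM against 56.1 and 44.4 CPM in Ucma cells (3.83 ± 0.42, adjusted p = 0.00052). Igfbp4, another binding protein, was 522 and 574 CPM against 101 and 57.9 CPM (2.57 ± 0.58, adjusted p = 0.021). The receptor Igf1r was 216 and 224 CPM, below Ucma cells (419 and 320 CPM, -1.03 ± 0.14) and Prg4 cells (509 and 414 CPM, -1.19 ± 0.14), and was 159 and 136 CPM in Pi16 cells.

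In the BMP and GDF family 7 of 22 tested genes were higher and 7 lower than in Ucma cells, 8 higher and 5 lower than in Prg4 cells, and 8 higher and 1 lower than in Pi16 cells (median 0.85). Bmp2 was 266 and 169 CPM, below Prg4 cells (774 and 684 CPM, -1.91 ± 0.16) and above Pi16 cells (97.8 and 63.7 CPM, 1.32 ± 0.16). Bmp4 was 78.8 and 135 CPM, above Ucma cells (16.3 and 12.8 CPM, 2.52 ± 0.31). The BMP target Id1 was 150 and 110 CPM against 28.5 and 17.3 CPM in Pi16 cells (2.40 ± 0.30, adjusted p = 0.00039). Of 17 genes of the TGF-beta system 6 were higher and 7 lower than in Ucma cells, 4 and 4 against Prg4 cells, and 10 higher and 1 lower than in Pi16 cells. Ltbp2, a microfibril-associated protein, was 105 and 110 CPM against 17.9 and 13.6 CPM in Pi16 cells (2.68 ± 0.21, adjusted p = 9.7e-09), and Ccn2, a matricellular target of TGF-beta, 892 and 947 CPM against 228 and 176 CPM (2.06 ± 0.22). The intracellular members Smad3 (98.5 and 71.0 CPM) and Smad7 (113 and 87.8 CPM) were below Prg4 cells by -1.49 ± 0.16 and -1.46 ± 0.18.

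Integrin subunits, which bind the matrix proteins above, differed in direction. Of 16 tested 3 were higher and 5 lower than in Ucma cells, 2 higher and 5 lower than in Prg4 cells, and 4 higher and 2 lower than in Pi16 cells. Itga8, the receptor chain for Npnt, was 29.6 and 55.7 CPM, above Ucma cells (3.30 and 4.97 CPM, 3.04 ± 0.35), Prg4 cells (6.20 and 12.7 CPM, 2.07 ± 0.36) and Pi16 cells (5.75 and 5.73 CPM, 2.74 ± 0.35, adjusted p = 1e-05). Its ligand Npnt was above Pi16 cells (1.75 and 2.87 CPM) by 4.66 ± 0.38 (adjusted p = 1.6e-07), Ucma cells (12.3 and 15.5 CPM) by 1.88 ± 0.31 and Prg4 cells (14.1 and 30.6 CPM) by 1.43 ± 0.32 (adjusted p = 0.0047). Itga10, a collagen II receptor of chondrocytes, was 60.8 and 48.1 CPM, below Ucma cells (77.8 and 100 CPM, -1.01 ± 0.19) and above Pi16 cells (9 and 11.1 CPM, 2.32 ± 0.22).

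Matrix-cutting enzymes and the enzymes that build sulfated glycosaminoglycans had medians of opposite sign against Ucma cells. Of 18 protease and inhibitor genes 10 were higher and 3 lower than in Ucma cells (median 0.96), 5 higher and 1 lower than in Prg4 cells, and 2 higher and 2 lower than in Pi16 cells. Mmp2, gelatinase A, was 802 and 876 CPM against 151 and 129 CPM in Ucma cells (2.28 ± 0.37, adjusted p = 0.0033), and Adamts5, an aggrecanase, 151 and 261 CPM against 40.0 and 30.6 CPM (2.22 ± 0.22, adjusted p = 2e-06). Of 14 glycosaminoglycan genes 1 was higher and 8 lower than in Ucma cells (median -0.89), 2 higher and 6 lower than in Prg4 cells, and 2 higher and none lower than in Pi16 cells. Papss2, which supplies activated sulfate in cartilage, was 131 and 50.4 CPM against 654 and 365 CPM in Ucma cells (-2.83 ± 0.22, adjusted p = 4.1e-08). The chondroitin sulfotransferase Chst11 was 229 and 55.0 CPM against 973 and 402 CPM (-2.68 ± 0.20), a call lost in the fit without the mouse as a block (adjusted p = 0.075).

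Among cholesterol synthesis genes, early response genes and genes of glycolysis, more were lower than higher against Ucma cells. Of 15 cholesterol genes 12 were lower and none higher than in Ucma cells (median -1.49), 9 lower and none higher than in Prg4 cells (-1.11), and none was called against Pi16 cells (0.08). Cyp51, a sterol demethylase, was 15.6 and 13 CPM against 61.7 and 58.5 CPM in Ucma cells (-2.40 ± 0.28, adjusted p = 1.2e-06). Of 20 early response genes, which are induced by dissociation as well as by signals, 13 were lower and none higher than in Ucma cells, 2 were higher and 5 lower than in Prg4 cells, and 5 were higher and none lower than in Pi16 cells. Btg2 was 537 and 463 CPM against 945 and 1463 CPM in Ucma cells (-1.54 ± 0.20). Of 18 genes of glycolysis and hypoxia 8 were lower and none higher than in Ucma cells, 5 were lower and none higher than in Prg4 cells, and 4 were higher and 1 lower than in Pi16 cells. Hif1a was 153 and 71.8 CPM against 422 and 220 CPM in Ucma cells (-1.83 ± 0.15). The heat shock list had 2 higher and 6 lower of 12 against Ucma cells, 2 and 2 against Prg4 cells, and none against Pi16 cells. Median depth moved with these comparisons, at 7986 and 11334 UMIs in Ucma cells and 3432 and 3963 in Pi16 cells against 4224 and 6247 in the selected cells. With every cell thinned to 2000 UMIs, Cyp51, Btg2 and Hif1a kept their calls against Ucma cells. The list counts were not redone after thinning, and the part of cell depth or state in these levels was not tested.

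Against Pi16 cells the selected cells were lower in several genes of adventitial fibroblasts. Of 7 tested fibroblast markers 6 were higher and none lower than in Ucma cells, 1 was lower and none higher than in Prg4 cells, and 3 were lower and none higher than in Pi16 cells (median -1.68), a group that was itself picked on Pi16 and Mfap5. C7, a late complement component of fibroblasts, was 14.8 and 7.63 CPM against 98.2 and 47.5 CPM in Pi16 cells (-2.78 ± 0.29, adjusted p = 6.1e-07). Cd34, a surface protein of adventitial cells, was 126 and 95.4 CPM against 430 and 367 CPM (-1.97 ± 0.39, adjusted p = 0.021). Of 14 chemokine and cytokine genes 8 were higher and 3 lower than in Ucma cells, 1 higher and 2 lower than in Prg4 cells, and 5 lower and none higher than in Pi16 cells. The counts against Prg4 cells lay near the shares over all tested genes, 5.28% higher and 9.41% lower. Il33, an alarmin of stromal cells, was 34.5 and 27.5 CPM against 136 and 99.1 CPM in Pi16 cells (-2.03 ± 0.24, adjusted p = 7e-06).

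The genes with the largest differences in each comparison, chosen by size among called genes of at least 50 CPM in one group, gave single-gene contrasts outside the lists. Cdh11 was 6.06 and 6.04 CPM in Ucma cells (4.24 ± 0.28, adjusted p = 9.2e-09), 15.9 and 21.9 CPM in Prg4 cells (2.79 ± 0.27) and 43.1 and 38.0 CPM in Pi16 cells (1.69 ± 0.24, adjusted p = 0.00016). F2r was 6.98 and 5.05 CPM in Ucma cells (3.97 ± 0.21, adjusted p = 1.7e-11), 14.3 and 16.7 CPM in Prg4 cells (2.79 ± 0.21) and 36.0 and 29.6 CPM in Pi16 cells (1.72 ± 0.19, adjusted p = 1.5e-06). Both genes were higher in the selected cells than in each of the 3 groups, with no overlap between mice. Angptl7 was above Ucma cells (10.7 and 21.9 CPM, 4.80 ± 0.74, adjusted p = 0.0043) in all settings tried, while its calls against Prg4 cells (2.69 ± 0.68, adjusted p = 0.048) and Pi16 cells (3.43 ± 0.69, adjusted p = 0.03) were lost with no filter on low counts (adjusted p = 0.088 and 0.054). The call against Prg4 cells was also lost with at least 2000 UMIs per cell (adjusted p = 0.053) and with at most 10% mitochondrial UMIs (adjusted p = 0.051).

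Against Prg4 cells Mfap4, a microfibril protein of elastic tissue, was 673 and 967 CPM against 79.2 and 73.0 CPM (3.26 ± 0.54, adjusted p = 0.0089), and Cpxm1, a secreted carboxypeptidase-like protein, 98.5 and 145 CPM against 15.3 and 23.2 CPM (2.55 ± 0.21, adjusted p = 2e-08). Lower there were Corin, a membrane serine protease, at 11.5 and 6.11 CPM against 210 and 157 CPM (-4.52 ± 0.31, adjusted p = 1.9e-08), and Meltf (melanotransferrin), an iron-binding surface protein, at 26.3 and 9.16 CPM against 333 and 232 CPM (-4.15 ± 0.24). Against Pi16 cells Gpha2, a glycoprotein hormone subunit, was 190 and 157 CPM against 6.13 and 6.50 CPM (4.67 ± 0.47, adjusted p = 0.00063), but it was found in only 36 and 24 selected cells, with 1 cell of mouse 2 holding 32.0% of its UMIs there. Gpha2 was 141 and 142 CPM in Ucma cells and 117 and 164 CPM in Tnmd cells. Over all 17401 tested genes, 130 were called higher in the selected cells in all 3 comparisons and 44 lower in all 3. The 3 comparisons share the selected cells, so these counts add no independent support.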

How the data were processed

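Tissue of 2 mice was profiled as 1 droplet library each. The deposited files hold UMI counts per gene and barcode for 56953 features, which the authors made with STAR and Cell Ranger 7.0.0 on GRCm39, per the submitters' processing notes. The annotation release and the strand setting are not given in the sources used here. Libraries were grouped by mouse and cells by rules on counts. Members and gene lists were chosen with earlier results of these data known. Counts were summed per mouse and group and tested with edgeR 4.0.16 (TMM scaling, quasi-likelihood, low counts filtered by edgeR's default) under R 4.3.3. The mouse entered as a block, because each animal supplies every group. Deviations of same-mouse sums correlated with r from 0.197 to 0.729 over 21 pairs of groups and 9655 genes. CPM is a gene's summed count scaled to the total of its group. The fit was tested on simulated counts, in which 4-fold changes were recovered in 100%, 98.0% and 100% of genes against Ucma, Prg4 and Pi16 cells and 2-fold changes in 60%, 46% and 42%. These counts were drawn from a single mean profile for all groups, with a fixed spread and no mouse effect. Changed genes were taken only from those above a set expected count. The shares therefore do not tell how many such changes are found in the real data. Genes were named as the 8 with the largest difference in each direction at 50 CPM or more and the same direction in both mice, plus up to 4 called genes per list. Others were named for their role after their values were seen. Alternatives used DESeq2 1.42.0, other scalings, filters, cell limits and Scrublet in scanpy 1.11.5. Intervals and floors cover counting error only. With the mouse as a block, p-values rest on how differences between groups varied between these 2 animals, pooled over the 7 groups. Nothing shows that they measure more than that.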

Additional observations from a re-analysis of the deposited data

How the results depend on the processing

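The fit with the mouse as a replicate block was the main one, since the same animal supplied every group. Without the replicate block 2366 genes were called against Ucma cells, 1046 against Prg4 cells and 616 against Pi16 cells, and the share of higher calls in the last went from 57.9% to 68.5%. Of the 115 gene differences given, 8 lost their call without the block: Bgn, Npnt, Postn and Angptl7 against Prg4 cells, Bgn, Vcan and Angptl7 against Pi16 cells and Chst11 against Ucma cells. With cells thinned to 2000 UMIs, which left fewer genes to test, 2425 genes were called against Ucma cells and 1502 against Prg4 cells. Among selected cells with both Cilp2 and Cemip, an alternative chosen after seeing the data that leaves 79 cells, 1917 genes (513 higher, 1404 lower) were called against Ucma cells and 1198 (278 higher, 920 lower) against Prg4 cells, and 17 of the 115 differences lost their call. The median log2 fold change over all genes was -0.24 and -0.22 there, away from the centre near 0 of the main fit. Of the 17 lost calls only those of Pthlh against Prg4 and Pi16 cells are named above. Against Pi16 cells the share of higher calls was 46.7% with no filter on low counts, 45.7% with at least 3 of the 4 genes and 42.3% with both Cilp2 and Cemip. Spp1 against Prg4 cells had no stable sign: its log2 difference was 0.12 with at least 3 of the 4 genes, 0.13 after thinning, 0.28 with both Cilp2 and Cemip, and -0.063 to 0.058 when 1 mouse was left out. The other 114 differences kept their direction in all settings tried, including each mouse alone, and none of the 115 lost its call under DESeq2's size factors or Wald test, without doublet candidates, without the deepest cell of each mouse, without cells carrying 3 or more markers of another cell type, or without cells that also met the Pi16 rule. Calls were lost for Col1a1 against Ucma cells, Angptl7 against Prg4 and Pi16 cells and Spp1 against Pi16 cells with no filter on low counts, for Cilp and Col1a1 against Ucma cells and Spp1 against Pi16 cells with at least 3 of the 4 genes, for Angptl7 against Prg4 cells and Spp1 against Pi16 cells with at least 2000 UMIs per cell, for Angptl7 against Prg4 cells with at most 10% mitochondrial UMIs, and for Spp1 against Pi16 cells with no UMI of Ucma, Col10a1 or Prg4. Leaving out the deepest cells, cells with other markers or cells of the Pi16 rule was also chosen after seeing the data. A count of called genes with 1 mouse left out could not be made, because 1 sum per group leaves no residual degrees of freedom.

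The share of selected cells depended on the rule. It was 0.531% and 0.640% of cells in mouse 1 and mouse 2 with at least 3 of the 4 genes, 1.29% and 1.38% with no UMI of Ucma, Col10a1 or Prg4, 0.304% and 0.372% with both Cilp2 and Cemip, and 1.55% in mouse 1 without cells that met the Pi16 rule. Depth limits genes under about 3 UMIs in the summed selected cells, and 2 animals limit every test. The selection rests on detection in single cells, whose depth varies. Free RNA was not removed from the counts.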
